A study of Mus musculus with 12 samples.

Results

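The genes described here are 37 collagens and other extracellular matrix proteins, taken from a table of 55335 mouse genes by their symbols. They fall into 5 fibrillar collagens, 8 basement membrane genes, 6 other collagens, 5 proteoglycans, 7 genes of the elastic fibre and its cross-linking, and 6 matricellular or adhesive glycoproteins. All 37 symbols were found in the table, each as 1 row, and all had a value above 0 in every library.

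The 12 colon RNA libraries were from wild-type mice whose colitis had been induced chemically, 3 libraries in each of 4 groups. The groups were TNBS (trinitrobenzene sulfonic acid) colitis given thymopentin, TNBS colitis given normal saline, DSS (dextran sulfate sodium) colitis given thymopentin, and DSS colitis given normal saline. TNBS is a hapten that provokes an immune reaction in the bowel wall, DSS is a polymer that injures the epithelium, and thymopentin is a synthetic pentapeptide derived from the thymic protein thymopoietin. The design text gives the aim as tracing signalling downstream of thymopentin in both models. All groups had colitis, so no level below is set against a healthy colon. The sources used here give no dose, timing, strain, age or sex, and do not say whether the libraries of a group came from separate mice, so p-values measure the spread between these libraries.

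The extracellular matrix of the colon is laid down mainly by fibroblasts and smooth muscle cells and gives the wall its shape and tensile strength. Fibrillar collagens form cables, collagen IV and its partners form the basement membrane sheet under epithelium, vessels and muscle, and small proteoglycans such as decorin and lumican bind to fibrils and set their spacing. Fibronectin, periostin and thrombospondins are deposited during wound repair and link cells to the matrix.

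A pair of promoter windows is shown because Col4a1 and Col4a2, which encode the chains of the same collagen IV trimer, lie head to head and share their promoter DNA, and because their levels moved together in the data below. The windows run from 250 bases before to 50 bases after each RefSeq start in GRCm38.p6. Capitals mark the 78 bases that both windows hold, read from opposite strands, and the annotated starts lie 21 bases apart. Col4a1 lies at chr8:11312777-11313076 on the minus strand and Col4a2 at chr8:11312555-11312854 on the plus strand.
Col4a1: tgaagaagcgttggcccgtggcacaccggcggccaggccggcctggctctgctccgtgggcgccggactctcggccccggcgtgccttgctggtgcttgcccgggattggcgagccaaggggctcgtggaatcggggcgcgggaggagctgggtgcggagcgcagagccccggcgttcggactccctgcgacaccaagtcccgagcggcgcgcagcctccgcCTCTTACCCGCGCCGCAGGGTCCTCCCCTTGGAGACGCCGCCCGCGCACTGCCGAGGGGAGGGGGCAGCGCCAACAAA
Col4a2: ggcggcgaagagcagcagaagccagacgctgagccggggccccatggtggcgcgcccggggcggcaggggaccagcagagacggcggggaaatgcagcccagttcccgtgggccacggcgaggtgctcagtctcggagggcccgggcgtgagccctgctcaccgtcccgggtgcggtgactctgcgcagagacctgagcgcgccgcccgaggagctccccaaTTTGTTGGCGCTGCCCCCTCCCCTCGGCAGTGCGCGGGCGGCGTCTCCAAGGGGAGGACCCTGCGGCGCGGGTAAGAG
The other collagen IV pair, Col4a5 and Col4a6 on chromosome X, also points in opposite directions, but its starts lie 1343 bases apart and the windows share 0 bases. Windows were given for 25 of the 37 genes, 31 windows in all. The GC box GGGCGG, read on both strands, stood in 61.3% of the 31 windows, against 35.7% of all 32851 mouse windows. The SMAD letters CAGAC stood in 58.1%, against 49.6% of all windows, and the TATA letters TATAAA in 19.4%, against 13.6%. Other motifs were less frequent than over all windows: CCAAT stood in 32.3%, against 37.4%, the AP-1 letters TGANTCA in 3.23%, against 7.81%, and the CArG box in 0%, against 1.63%. A CArG box can hold CCAAT or TATAAA, and none of the others is part of another. Both windows of Col4a1 and Col4a2 held CCAAT and the GC box. The deposited values were made on mm9, per the submitters' processing notes, so these positions belong to the windows alone.

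Levels are FPKM, fragments scaled to transcript length and library size, so levels of different genes can be set side by side per length. The sources used here do not give the number of reads behind the table. Between 13160 and 13805 genes reached 1 FPKM in a library, and markers of colon epithelium were present everywhere, with 10 genes summing to 4862 to 7449 FPKM. TNBS saline 3 stood apart: Hoxb13, which marks the distal end of the bowel and is named here after its values had been seen, was at 0.722 FPKM, against 49.4 to 122.3 FPKM in the 11 other libraries. Counts below are therefore also given without it. Hoxb13 also set the DSS groups apart, at 122.3, 109.1 and 104.2 FPKM in thymopentin libraries, against 52.8, 59.9 and 65.4 FPKM in saline libraries. Whether the position sampled along the bowel differed between these groups was not tested. In the GENCODE annotation of GRCm38, exons of 11 of the 37 genes overlap those of a gene on the opposite strand, Col4a1 and Col4a2 with each other among them, and those of Col3a1 overlap a gene on its own strand. The libraries were strand-specific per the labels, but whether the counting used strand is not given, so the share of such reads is unknown.

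Sparc, Col3a1 and Ogn had the highest mean FPKM over the 12 libraries (47.1, 42.5 and 40.1), and Vcan and Col4a6 the lowest (0.745 and 0.678). Summed over the 37 genes, expression was 367, 409 and 493 FPKM in TNBS thymopentin libraries, against 265, 248 and 304 in TNBS saline libraries. It was 445, 348 and 410 FPKM in DSS thymopentin libraries, against 537, 524 and 592 in DSS saline libraries. The groups did not overlap in either model, with the thymopentin libraries above saline in TNBS colitis and below it in DSS colitis. TNBS saline had the lowest group mean for 30 of the 37 genes and DSS saline the highest for 22, while TNBS thymopentin was highest for 12 and DSS thymopentin for 3 (Col3a1, Col14a1 and Fbln5).

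**Figure D1:**
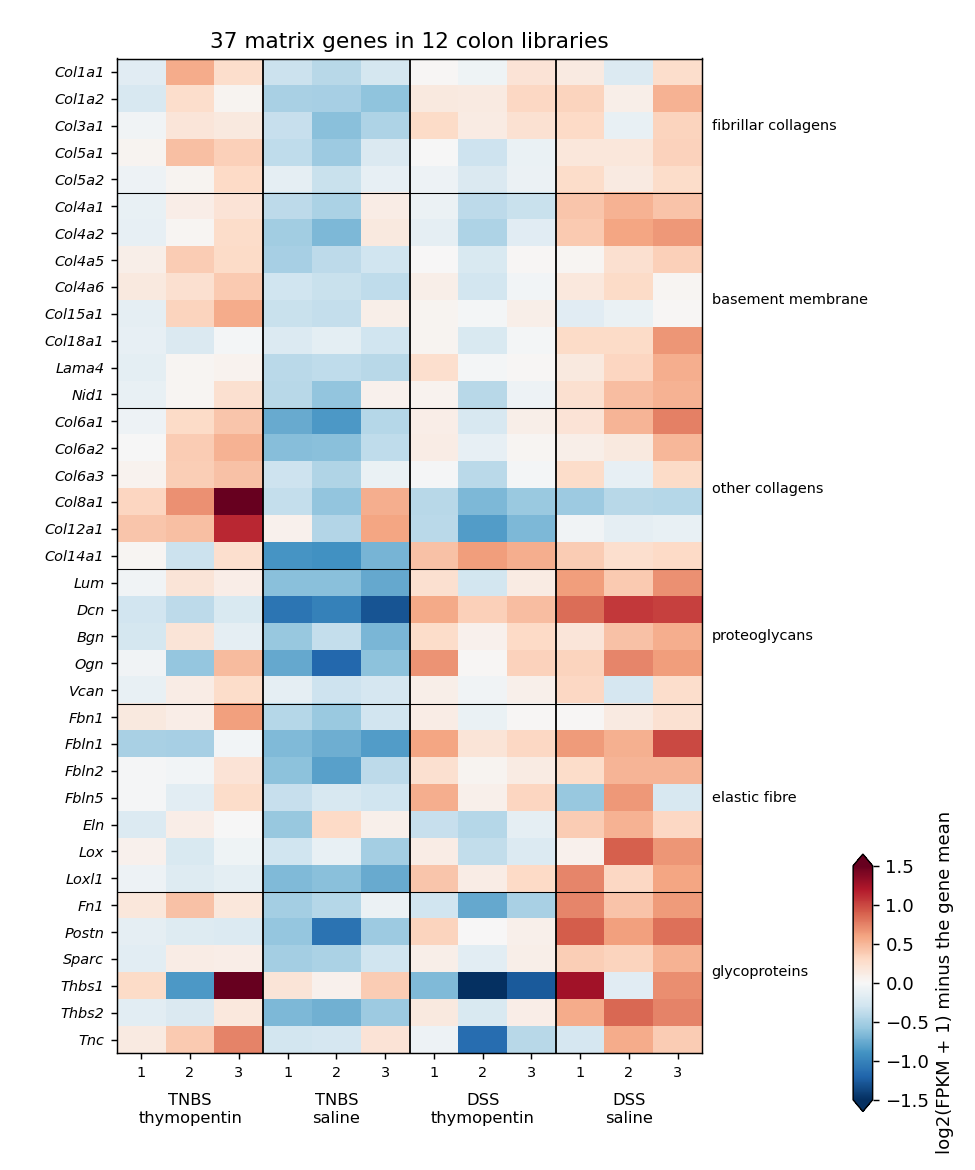
Heat map of the 37 matrix genes (rows, grouped by role) in the 12 libraries (columns, 3 for each group), where colour is log2(FPKM + 1) minus the mean of that gene over all libraries. TNBS saline columns are mostly blue, with the lowest group mean for 30 genes, and DSS saline columns mostly red, with the highest for 22.

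Each gene with a mean of at least 1 FPKM over the 12 libraries was tested with limma on log2(FPKM + 1), which kept 13794 genes. Of the 37 matrix genes 35 were kept, and Col4a6 and Vcan fell under the filter. Of those kept, Col8a1, Col12a1, Col14a1, Fbln2 and Fbln5 had a group mean under 1 FPKM, so they passed through their higher groups. A gene is called at a Benjamini-Hochberg adjusted p under 0.05 over all genes tested, and log2 fold changes are given ± SE. Fold changes on this scale understate those of genes with low FPKM.

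With thymopentin in TNBS colitis, matrix genes lay higher than with saline. Decorin, lumican, collagen XIV, the collagen VI chain Col6a2 and the collagen IV chain Col4a5 rose, with log2 fold changes between 0.65 (Col4a5) and 0.84 (Col6a2). All 35 tested genes had a positive log2 fold change, as did 56.7% of all genes, and their median was 0.56, against 0.03 over all genes. Only Eln turned negative under median-ratio or quantile scaling.
Of the 35, 5 were called higher and 0 lower, where 0.283% of all genes were called higher and 0.384% lower. Col14a1, among the 5, passed the filter through its higher groups. Without overlap between the groups, 24 of 35 lay higher and 0 lower, where 12.1% and 6.75% of all genes did; at an unadjusted p under 0.05 limma gave 1748 genes in all. With the replicate number as a block the count was 1 (Lum), and it was 0 in a fit of the TNBS libraries alone. It was 1 without TNBS thymopentin 3, TNBS saline 1, TNBS saline 2 or DSS thymopentin 3, 2 without TNBS thymopentin 2, DSS thymopentin 2 or DSS saline 3, and 3 without TNBS thymopentin 1, TNBS saline 3 or DSS thymopentin 1. Dcn kept its call through all 12 omissions, and without TNBS saline 3 the called genes were Dcn, Col14a1 and Fbln2, with a median over the 35 genes of 0.62.

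With thymopentin in DSS colitis, matrix genes lay lower than with saline. On the log2(FPKM + 1) scale fibronectin fell most among called members (log2 fold change -1.12 ± 0.15). Next came the collagen IV chains Col4a2 and Col4a1, thrombospondin 2, elastin and lysyl oxidase. Periostin, lumican, decorin, collagen XVIII, SPARC and the collagen V chain Col5a2 came last. Of the 35 genes, 12 were called lower and 0 higher, where 4.30% of all genes were called lower and 12.7% higher. The log2 fold change was negative for 31 of 35, against 33.9% of all genes. Their median was -0.36, against 0.12 over all genes. The scaling bears on the background: under median-ratio scaling the median of all genes was 0.01, and higher calls made up 49.8% of all calls, against 74.7% in the fit used here.
Groups did not overlap for 18 genes that lay lower and for 1, Col14a1, that lay higher, where 11.5% and 28.3% of all genes did so. Without DSS thymopentin 2 the count of calls was 3 (Fn1, Thbs2 and Dcn), without DSS saline 3 it was 4, without DSS thymopentin 3 it was 5 and without DSS saline 1 it was 7. Fn1, Thbs2 and Dcn kept their calls through all 12 omissions, and without TNBS saline 3 the count was 12.

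**Figure D2:**
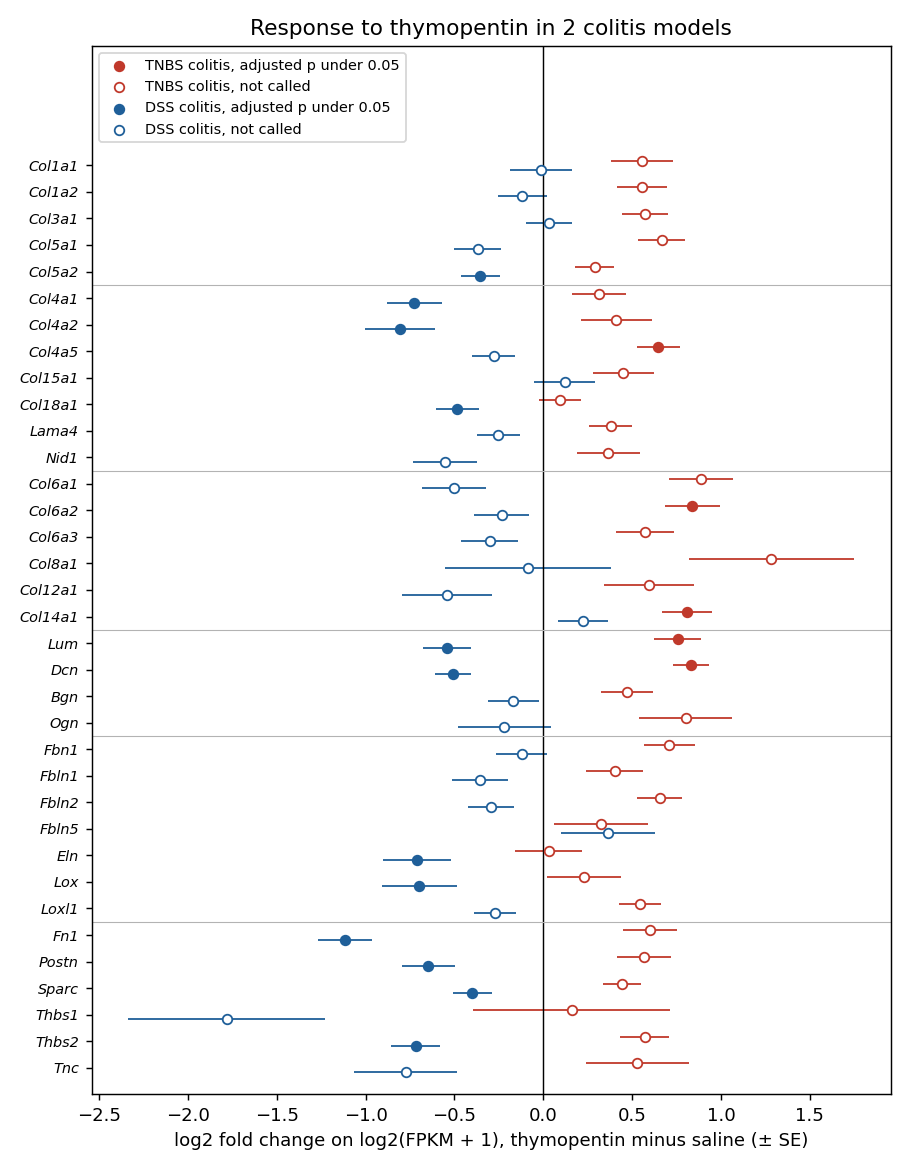
Log2 fold change of thymopentin over saline (x axis, ± SE from limma, 3 libraries a group) for the 35 tested matrix genes, in TNBS colitis (red) and DSS colitis (blue), with filled points for an adjusted p under 0.05. All 35 red points lie above 0 and 31 blue points below 0, and Dcn and Lum are filled in both colours.

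The responses differed between the models for Dcn, Fn1, Lum, Thbs2, Postn, Col5a1, Sparc, Col6a1, Col4a5, Fbln2, Loxl1, Col6a2, Col4a1, Col4a2, Col5a2 and Fbn1. In this test, in which the TNBS response is subtracted from the DSS response, 16 of 35 genes were called lower and 0 higher, where 2.42% of all genes were called lower and 2.73% higher. Scaling again shifted the background, with higher calls at 53.0% of all calls here and at 41.5% under median-ratio scaling. The median over the 35 genes was -0.93, against 0.11 over all genes, and 34 were negative, Fbln5 being the exception. Positive in TNBS and negative in DSS were 31 genes, and Dcn and Lum were called in both models, higher in TNBS and lower in DSS. These tests share libraries with both within-model comparisons and are not independent of them.
The count fell to 5 without DSS saline 3, to 6 without TNBS saline 1, to 8 without DSS thymopentin 2 and to 10 without DSS thymopentin 3, and was 19 without TNBS saline 3. Dcn, Thbs2, Fn1, Postn and Lum kept their calls through all 12 omissions, and the other 11 genes each lost theirs in 1 to 10.

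Markers of other cell types moved alongside these genes. In TNBS colitis the median log2 fold change was 0.51 for 12 tested smooth muscle markers, 0.41 for 9 fibroblast markers, 0.41 for 7 neuron and glia markers, 0.27 for 8 endothelial markers and -0.27 for 10 epithelial markers. Of these, 1 was called, the fibroblast gene Dpt, higher, which is itself a matrix gene. In DSS colitis 5 of 12 smooth muscle markers (median -0.92), 3 of 9 fibroblast markers (-0.31), 6 of 7 neuron and glia markers (-0.62) and 1 of 8 endothelial markers (-0.36) were called lower, and 2 of 10 epithelial markers (0.14), Cdh1 and Epcam, higher. Over all genes the medians were 0.03 in TNBS and 0.12 in DSS. Of all genes 0.283% were called higher and 0.384% lower in TNBS, and 12.7% higher and 4.30% lower in DSS. The epithelial median in DSS was thus near that of all genes. Of the 7 macrophage markers, 0 were called in either model, with medians of -0.13 and -0.43 in TNBS and DSS.
Summed levels of the 12 smooth muscle markers ran from 1849 to 2631 FPKM in TNBS thymopentin libraries, against 889 to 2739 FPKM in TNBS saline libraries. They ran from 1575 to 2360 FPKM in DSS thymopentin libraries, against 3526 to 4102 FPKM in DSS saline libraries. The TNBS groups overlapped for this list and the DSS groups did not.
The 12 fibroblast markers summed to 53.1 to 68.8 FPKM in TNBS thymopentin libraries, against 40.3 to 46.0 FPKM in TNBS saline libraries. They summed to 114.1 to 119.6 FPKM in DSS thymopentin libraries, against 162.1 to 220.7 FPKM in DSS saline libraries. The groups did not overlap for fibroblast markers in either model. Much of these sums came from Dpt and Ly6c1. Mean Dpt was 31.4 FPKM with thymopentin and 16.6 FPKM with saline in TNBS, and 51.0 and 60.6 FPKM in DSS. Mean Ly6c1 was 5.12 and 9.83 FPKM in TNBS, against the direction of the sum, and 31.9 and 80.7 FPKM in DSS.
The 8 neuron and glia markers summed to 14.1 to 23.7 FPKM in TNBS thymopentin libraries, against 9.99 to 11.5 FPKM in TNBS saline libraries, and to 12.9 to 21.6 FPKM in DSS thymopentin libraries, against 30.3 to 36.7 FPKM in DSS saline libraries. These did not overlap in either model. Endothelial markers, 8 in number, summed to 17.5 to 25.7 FPKM in TNBS thymopentin libraries, against 14.1 to 19.9 in TNBS saline, and to 29.6 to 32.1 FPKM in DSS thymopentin libraries, against 33.7 to 45.7 in DSS saline. The 10 epithelial markers summed to 4862 to 5963 FPKM in TNBS thymopentin libraries, against 6196 to 7081 FPKM in TNBS saline libraries, without overlap. In DSS they summed to 6442 to 7407 FPKM with thymopentin, against 6111 to 7449 FPKM with saline, and overlapped. No marker of these lists was at 0 throughout a group. Fewer cells of a type and less RNA per cell cannot be told apart in bulk tissue, and the part of these markers in the changes of the matrix genes was not tested.
Markers of fat varied between single libraries. The 5 adipocyte markers summed to 65.4 FPKM in TNBS saline 3 and to 13.3 to 113.1 FPKM in DSS saline libraries, against 0.468 to 14.6 FPKM in DSS thymopentin libraries. The 5 mesothelial markers summed to 8.17, 6.49 and 1.54 FPKM in TNBS thymopentin libraries, against 1.48 to 1.94 FPKM in TNBS saline libraries. Their sums were 1.35 to 2.29 FPKM in DSS thymopentin libraries, against 0.603 to 2.35 FPKM in DSS saline libraries, so TNBS thymopentin 1 and 2 stood above the other 10 libraries. The 1 tested mesothelial marker, Msln, had a log2 fold change of 0.97 in TNBS colitis and was not called. Of the 5 skeletal muscle markers Myh4 was at 0 in every library and 2 were tested. Acta1 rose in DSS colitis (log2 fold change 1.51 ± 0.19, adjusted p = 0.00162), while Ckm had a log2 fold change of -0.82 there and was not called. The part of these lists in the changes of the matrix genes was not tested either.

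**Figure D3:**
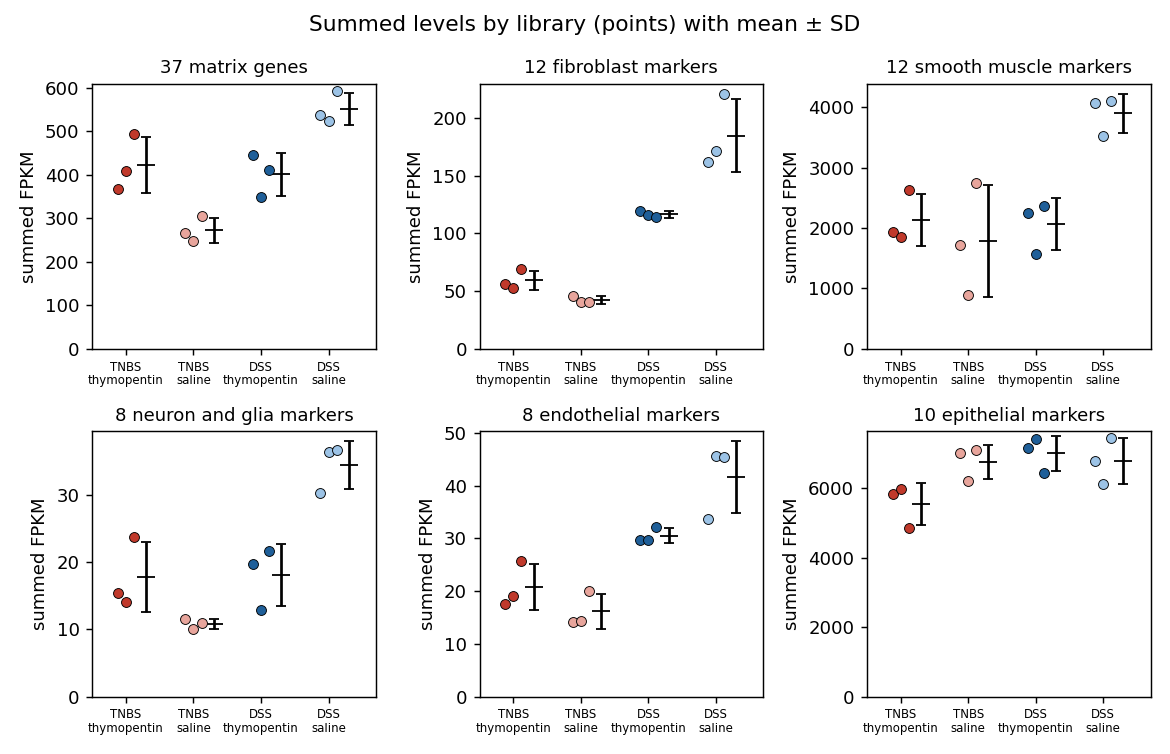
Summed FPKM (y axis) of the 37 matrix genes and of 5 marker lists in each library (points), by group, with the group mean ± SD (n = 3) beside them. Matrix genes and fibroblast markers lie highest in DSS saline and lowest in TNBS saline, and smooth muscle markers of TNBS saline spread from 889 to 2739 FPKM.

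Among the proteoglycans, decorin (Dcn) binds collagen fibrils and limits their width. It had 18.8, 17.4 and 19.6 FPKM in TNBS thymopentin libraries, against 10.3, 11.02 and 8.84 FPKM in TNBS saline libraries. In DSS it had 34.9, 29.97 and 32.4 FPKM with thymopentin, against 42.2, 49.5 and 48.2 FPKM with saline. No groups overlapped, and every DSS library stood above every TNBS library. The log2 fold change was 0.83 ± 0.10 in TNBS colitis (adjusted p = 0.00674) and -0.51 ± 0.10 in DSS colitis (adjusted p = 0.0103). The responses differed by -1.34 ± 0.14 (adjusted p = 0.00348). The TNBS adjusted p reached 0.0852 at its highest over the other settings, which included the replicate block.
Lumican (Lum), which spaces collagen fibrils, had the same directions within each model. It had 11.96, 14.4 and 13.5 FPKM in TNBS thymopentin libraries, against 7.72, 7.69 and 6.88 FPKM in TNBS saline libraries. DSS thymopentin libraries held 14.8, 10.1 and 13.6 FPKM, against 19.7, 16.7 and 20.6 FPKM in DSS saline libraries. All TNBS thymopentin libraries lay above saline, and all DSS thymopentin libraries below it, while the thymopentin libraries of the models overlapped. Log2 fold changes were 0.76 ± 0.13 in TNBS (adjusted p = 0.0366) and -0.54 ± 0.13 in DSS (adjusted p = 0.0238), and they differed by -1.30 ± 0.19 (adjusted p = 0.00925). The TNBS call was lost in 8 of 12 omissions, those of the 6 TNBS libraries among them (up to adjusted p = 0.119), and the DSS call without DSS thymopentin 2 or DSS saline 1 or 3 (up to 0.0863), while the difference kept its call in all 12.
Biglycan (Bgn), a close relative of decorin, had 10.6, 14.9 and 11.67 FPKM in TNBS thymopentin libraries, against 8.33, 9.88 and 7.64 in TNBS saline. It had 15.8, 13.6 and 16.1 FPKM in DSS thymopentin libraries, against 14.8, 17.8 and 19.2 in DSS saline. TNBS groups were apart, DSS groups overlapped, and no call was made within a model (log2 fold changes 0.47 ± 0.14 and -0.17 ± 0.14). Osteoglycin (Ogn), of the same leucine-rich family, had 35.6, 24.3 and 51.7 FPKM in TNBS thymopentin libraries, against 21.2, 15.7 and 23.8 in TNBS saline. DSS thymopentin libraries held 59.2, 37.2 and 47.0 FPKM of it, against 46.6, 61.7 and 57.3 in DSS saline. TNBS groups did not overlap and DSS groups did, and the log2 fold changes of 0.80 ± 0.26 and -0.22 ± 0.26 were not called. Versican (Vcan), a large hyaluronan-binding proteoglycan under the filter, ranged from 0.601 to 1.097 FPKM in TNBS thymopentin libraries, against 0.393 to 0.568 FPKM in TNBS saline libraries. It ranged from 0.667 to 0.831 FPKM in DSS thymopentin libraries, against 0.447 to 1.14 FPKM in DSS saline libraries.

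All 6 glycoproteins had a negative log2 fold change in DSS colitis, and 4 of them were called lower, where 4.30% of all genes were. In TNBS colitis 0 of the 6 were called, where 0.283% of all genes were called higher and 0.384% lower. Fibronectin (Fn1), an adhesive protein of the wound matrix, had 21.4, 26.0 and 21.5 FPKM in TNBS thymopentin libraries, against 13.0, 13.8 and 17.8 FPKM in TNBS saline libraries. DSS thymopentin libraries held 15.2, 10.7 and 13.3 FPKM, against 32.1, 25.9 and 30.1 FPKM in DSS saline libraries. The groups were apart in both models, in opposite directions, and the TNBS saline and DSS thymopentin libraries overlapped at the low end. In DSS colitis the adjusted p was 0.00205, and in TNBS colitis the log2 fold change of 0.60 ± 0.15 was not called (adjusted p = 0.116). The responses differed by -1.72 ± 0.21 (adjusted p = 0.00603), the largest difference among called members on the log2(FPKM + 1) scale. The authors' deposited table for DSS lists Fn1 with a log2 fold change of -1.31 (FDR 2.03e-12), on 6793, 4043 and 6241 recovered reads in thymopentin libraries, against 15575, 11664 and 13520 reads in saline libraries.
Periostin (Postn), a matricellular protein of active fibroblasts, had 18.0, 17.3 and 17.1 FPKM in TNBS thymopentin libraries, against 13.0, 8.67 and 13.3 in TNBS saline. It had 25.3, 20.0 and 20.97 FPKM in DSS thymopentin libraries, against 38.3, 31.0 and 36.0 in DSS saline. Again no groups overlapped within a model. Its log2 fold change was -0.65 ± 0.15 in DSS (adjusted p = 0.0192) and 0.57 ± 0.15 in TNBS (not called), and the responses differed by -1.22 ± 0.21 (adjusted p = 0.0158). Without DSS thymopentin 2 or 3 or DSS saline 1 or 3 the DSS call was lost (up to adjusted p = 0.0718).
SPARC (Sparc) binds collagen as it is secreted. Its level was 41.2, 49.6 and 49.4 FPKM in TNBS thymopentin libraries, against 32.1, 32.7 and 37.2 in TNBS saline libraries. In DSS it was 49.0, 41.2 and 49.1 FPKM with thymopentin, against 59.8, 58.1 and 66.2 FPKM with saline. Groups were apart in both models, and the thymopentin groups of the models held nearly the same level. The log2 fold change was -0.40 ± 0.11 in DSS (adjusted p = 0.0324; up to 0.113 without DSS thymopentin 2 or 3 or DSS saline 1 or 3) and 0.44 ± 0.11 in TNBS (not called).
Thrombospondin 2 (Thbs2), a matricellular regulator of collagen assembly and vessel growth, had 1.86, 1.75 and 2.56 FPKM in TNBS thymopentin libraries, against 1.01, 0.936 and 1.19 in TNBS saline. DSS thymopentin libraries held 2.55, 1.73 and 2.42 FPKM, against 3.72, 4.80 and 4.38 in DSS saline. DSS saline stood above every other library. Log2 fold changes were -0.72 ± 0.14 in DSS (adjusted p = 0.00889) and 0.57 ± 0.14 in TNBS (not called), differing by -1.29 ± 0.20 (adjusted p = 0.0101). The authors' deposited table for DSS gives -1.09 for Thbs2 (FDR 9.38e-08).
Thrombospondin 1 (Thbs1), which can activate latent TGF-beta, varied widely between libraries of a group. It had 15.9, 6.64 and 43.6 FPKM in TNBS thymopentin libraries, against 14.8, 13.4 and 17.1 in TNBS saline. It had 7.72, 3.48 and 4.76 FPKM in DSS thymopentin libraries, against 32.2, 11.3 and 21.4 in DSS saline. TNBS thymopentin 3 alone was high in TNBS, while the DSS groups were apart. Its DSS log2 fold change of -1.78 ± 0.56 missed the threshold (adjusted p = 0.0509). Thbs1 was called with a pseudocount of 0.1, with a mean of at least 5 FPKM, in a fit of the DSS libraries alone and with the replicate block. It was also called without TNBS thymopentin 2, TNBS thymopentin 3 or DSS saline 2, and in no other setting or omission. Whether same-numbered DSS libraries are pairs is unknown. The authors' deposited table for DSS gives -2.11 for Thbs1 (FDR 0.00206). Tenascin C (Tnc), a glycoprotein of wound edges, had 11.3, 13.6 and 17.6 FPKM in TNBS thymopentin libraries, against 8.21, 8.39 and 11.9 in TNBS saline. It had 9.54, 4.07 and 7.37 FPKM in DSS thymopentin libraries, against 8.40, 15.4 and 13.5 in DSS saline. Groups overlapped in both models and neither log2 fold change (0.53 ± 0.29 and -0.77 ± 0.29) was called. The authors' deposited table for DSS lists Tnc at -1.001 (FDR 0.13).

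**Figure D4:**
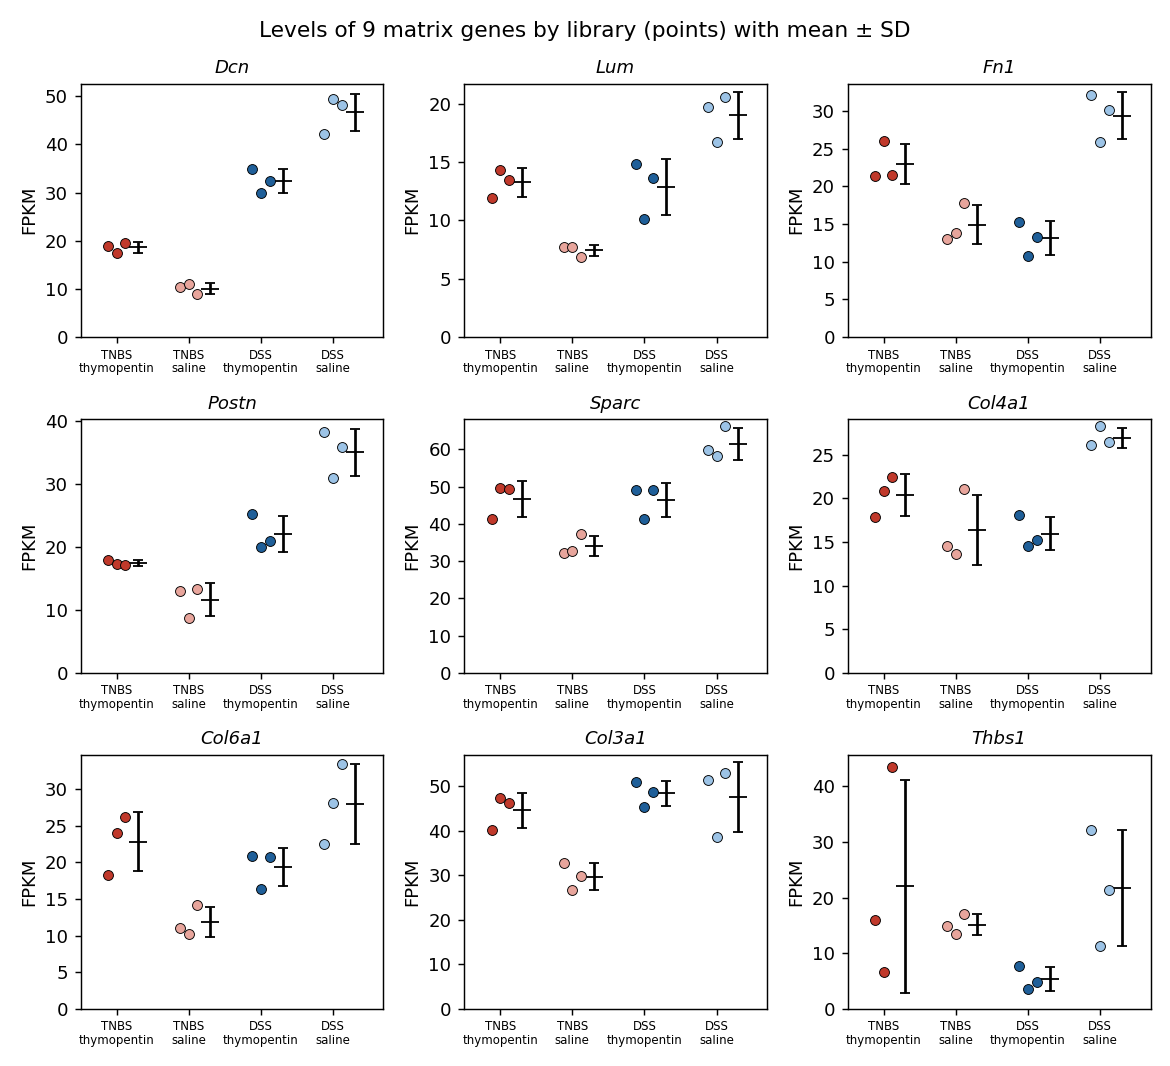
FPKM (y axis, from 0) of 9 matrix genes in each library (points), by group, with the group mean ± SD (n = 3) beside them. Dcn, Lum, Fn1, Postn and Sparc lie higher with thymopentin in TNBS colitis and lower with it in DSS colitis without overlap, Col3a1 does so in TNBS colitis alone, and Thbs1 reaches 43.6 FPKM in a single TNBS thymopentin library.

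The basement membrane genes had 1 call in TNBS colitis, Col4a5, and 3 in DSS colitis. Col4a1, a chain of the common collagen IV trimer, had 17.8, 20.9 and 22.5 FPKM in TNBS thymopentin libraries, against 14.6, 13.6 and 21.04 in TNBS saline. It had 18.2, 14.5 and 15.2 FPKM in DSS thymopentin libraries, against 26.1, 28.3 and 26.5 in DSS saline. TNBS groups overlapped through TNBS saline 3, and DSS saline stood above all other libraries. Col4a2, its partner across the shared promoter, had 12.2, 13.6 and 16.3 FPKM in TNBS thymopentin libraries, against 8.97, 7.96 and 14.9 in TNBS saline. DSS thymopentin libraries held 12.05, 9.38 and 11.70 FPKM, against 17.9, 20.6 and 21.5 in DSS saline. The same library, TNBS saline 3, was high for Col4a2. In DSS colitis the log2 fold changes were -0.73 ± 0.15 for Col4a1 (adjusted p = 0.0128) and -0.81 ± 0.20 for Col4a2 (adjusted p = 0.023). Their adjusted p reached 0.0513 and 0.0845 on leaving out a library, DSS thymopentin 2 for Col4a1 and DSS thymopentin 2 or 3 or DSS saline 3 for Col4a2. The ratio of Col4a1 to Col4a2 FPKM stayed between 1.23 and 1.71 in all libraries, with means of 1.46 ± 0.0762 in TNBS thymopentin, 1.58 ± 0.154 in TNBS saline, 1.45 ± 0.132 in DSS thymopentin and 1.35 ± 0.116 in DSS saline (SD, n = 3).
Col4a5, an X-linked collagen IV chain found in smooth muscle basement membrane, had 2.51, 3.30 and 3.05 FPKM in TNBS thymopentin libraries, against 1.34, 1.51 and 1.70 in TNBS saline. It had 2.32, 1.82 and 2.34 FPKM in DSS thymopentin libraries, against 2.38, 2.90 and 3.24 in DSS saline. Groups were apart in both models, with log2 fold changes of 0.65 ± 0.12 in TNBS (adjusted p = 0.0465, and up to 0.177 on leaving out any library except DSS saline 1) and -0.28 ± 0.12 in DSS (not called). Col4a6, its neighbour and partner chain, was under the filter. It had 0.827, 0.948 and 1.17 FPKM in TNBS thymopentin libraries, against 0.347, 0.311 and 0.267 in TNBS saline. It had 0.751, 0.369 and 0.604 FPKM in DSS thymopentin libraries, against 0.840, 1.02 and 0.685 in DSS saline. All TNBS thymopentin libraries lay above all TNBS saline libraries, and the DSS groups overlapped. The authors' deposited table for TNBS lists Col4a6 with a log2 fold change of 1.59 (FDR 2.97e-10), on 274, 295 and 371 recovered reads in thymopentin libraries, against 119, 92 and 95 reads in saline libraries.
Collagen XVIII (Col18a1), whose end fragment is endostatin, had 3.20, 2.92 and 3.46 FPKM in TNBS thymopentin libraries, against 2.95, 3.13 and 2.71 in TNBS saline. It had 3.69, 2.88 and 3.47 FPKM in DSS thymopentin libraries, against 4.58, 4.55 and 6.19 in DSS saline. DSS saline alone was raised, and the log2 fold change was -0.48 ± 0.12 in DSS (adjusted p = 0.023, up to 0.0849 without DSS thymopentin 2 or 3 or DSS saline 3) and 0.09 ± 0.12 in TNBS (not called).
Nidogen 1 (Nid1), which ties laminin to collagen IV, had 6.53, 7.27 and 8.58 FPKM in TNBS thymopentin libraries, against 5.10, 4.38 and 7.48 in TNBS saline. It had 7.44, 5.07 and 6.66 FPKM in DSS thymopentin libraries, against 8.58, 10.1 and 10.6 in DSS saline. TNBS groups overlapped and DSS groups were apart, with a DSS log2 fold change of -0.55 ± 0.18 that missed the threshold (adjusted p = 0.0583). The laminin chain Lama4, of vessel and muscle basement membrane, had 1.52, 1.83 and 1.87 FPKM in TNBS thymopentin libraries, against 1.09, 1.13 and 1.09 in TNBS saline. It had 2.31, 1.72 and 1.81 FPKM in DSS thymopentin libraries, against 2.06, 2.48 and 3.05 in DSS saline. Its TNBS groups were apart and its DSS groups overlapped, and neither log2 fold change (0.38 ± 0.12 and -0.25 ± 0.12) was called. Collagen XV (Col15a1) ranged from 2.01 to 3.87 FPKM in TNBS thymopentin libraries, against 1.59 to 2.51 FPKM in TNBS saline libraries. In DSS it ranged from 2.24 to 2.52 FPKM with thymopentin, against 1.95 to 2.34 FPKM with saline. It overlapped in both models and was called in no comparison.

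Among the other collagens, collagen VI forms beaded filaments around cells, and its Col6a2 chain rose in TNBS colitis. Col6a2 had 7.40, 9.99 and 11.1 FPKM in TNBS thymopentin libraries, against 4.44, 4.50 and 5.53 in TNBS saline. It had 8.14, 6.80 and 7.65 FPKM in DSS thymopentin libraries, against 8.01, 8.34 and 10.9 in DSS saline. TNBS groups did not overlap, and DSS groups did. The log2 fold change was 0.84 ± 0.15 in TNBS (adjusted p = 0.0449, lost in 9 of 12 omissions, up to 0.164) and -0.23 ± 0.15 in DSS (not called), and the responses differed by -1.07 ± 0.22 (adjusted p = 0.0252).
Col6a1, the chain with the highest level, had 18.3, 23.98 and 26.2 FPKM in TNBS thymopentin libraries, against 11.1, 10.3 and 14.2 in TNBS saline. It had 20.95, 16.4 and 20.8 FPKM in DSS thymopentin libraries, against 22.5, 28.1 and 33.4 in DSS saline. Groups were apart in both models. Its log2 fold changes of 0.89 ± 0.18 in TNBS (adjusted p = 0.0575) and -0.50 ± 0.18 in DSS (adjusted p = 0.0799) both missed the threshold, while their difference of -1.39 ± 0.26 was called (adjusted p = 0.0178, up to 0.0527 without TNBS saline 1, DSS thymopentin 2 or DSS saline 3). Col6a3, the third chain, had 5.30, 6.83 and 7.26 FPKM in TNBS thymopentin libraries, against 3.90, 3.45 and 4.69 in TNBS saline. It had 4.98, 3.60 and 4.92 FPKM in DSS thymopentin libraries, against 6.33, 4.59 and 6.44 in DSS saline. TNBS groups were apart and DSS groups overlapped, with neither called.
Collagen XIV (Col14a1), a fibril-associated collagen of fibroblasts, rose in TNBS colitis and was the only called TNBS member with a positive value in DSS. It had 1.30, 0.802 and 1.68 FPKM in TNBS thymopentin libraries, against 0.226, 0.202 and 0.400 in TNBS saline. It had 2.05, 2.49 and 2.30 FPKM in DSS thymopentin libraries, against 1.94, 1.70 and 1.79 in DSS saline. Thymopentin libraries lay above saline in both models without overlap. Col14a1 had a TNBS saline mean of 0.276 FPKM, so it passed the filter of 1 FPKM through its higher groups. Its log2 fold change was 0.81 ± 0.14 in TNBS (adjusted p = 0.0317, lost in 7 of 12 omissions, up to 0.123) and 0.22 ± 0.14 in DSS (not called). The authors' deposited table for TNBS gives 2.10 (FDR 2.14e-06) for Col14a1 on their read-based scale.
Collagen XII (Col12a1), also fibril-associated, had 3.03, 3.11 and 5.56 FPKM in TNBS thymopentin libraries, against 2.15, 1.216 and 3.52 in TNBS saline. It had 1.27, 0.681 and 0.891 FPKM in DSS thymopentin libraries, against 1.90, 1.74 and 1.79 in DSS saline. TNBS groups overlapped, and DSS groups were apart with a log2 fold change of -0.54 ± 0.25 (adjusted p = 0.163). Col12a1 was called there in a fit of the DSS libraries alone and with the replicate block, and in no other setting or omission. Whether same-numbered DSS libraries are pairs is unknown, so the block may have no basis there. The authors' deposited table for DSS gives -1.11 for Col12a1 (FDR 3.83e-05). Collagen VIII (Col8a1), a short-chain collagen of vessels, had 2.20, 3.10 and 12.9 FPKM in TNBS thymopentin libraries, against 0.987, 0.700 and 2.73 in TNBS saline. It stayed between 0.599 and 0.909 FPKM in DSS thymopentin libraries, against 0.751 to 0.915 FPKM in DSS saline libraries. TNBS thymopentin 3 stood far above the rest, groups overlapped in both models, and the authors' deposited table for TNBS lists Col8a1 at 1.78 (FDR 0.388).

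The 5 fibrillar collagens had 0 calls in TNBS colitis and 1 in DSS colitis, Col5a2. Col1a1, the main chain of collagen I, had 14.1, 23.9 and 19.3 FPKM in TNBS thymopentin libraries, against 12.5, 11.68 and 13.1 in TNBS saline. It had 16.2, 15.2 and 18.6 FPKM in DSS thymopentin libraries, against 17.7, 13.7 and 19.3 in DSS saline. TNBS groups were apart and DSS groups overlapped, and the log2 fold changes of 0.56 ± 0.18 and -0.01 ± 0.18 were not called. Col1a2, its partner in the trimer, had 11.03, 16.1 and 13.6 FPKM in TNBS thymopentin libraries, against 9.11, 9.06 and 8.35 in TNBS saline. It had 14.7, 14.6 and 16.7 FPKM in DSS thymopentin libraries, against 16.9, 14.2 and 19.3 in DSS saline. It was apart in TNBS (log2 fold change 0.56 ± 0.14, adjusted p = 0.115), overlapped in DSS, and was not called in either. The ratio of Col1a1 to Col1a2 FPKM was 1.39 ± 0.104 in TNBS thymopentin and 1.41 ± 0.142 in TNBS saline libraries, and 1.09 ± 0.0396 in DSS thymopentin and 1.004 ± 0.0380 in DSS saline libraries (SD, n = 3).
Col3a1, of the reticular fibres, had 40.1, 47.4 and 46.2 FPKM in TNBS thymopentin libraries, against 32.6, 26.6 and 29.8 in TNBS saline. It had 50.9, 45.3 and 48.8 FPKM in DSS thymopentin libraries, against 51.3, 38.5 and 52.9 in DSS saline. TNBS groups were apart (log2 fold change 0.57 ± 0.13, adjusted p = 0.0869) and DSS groups overlapped (0.03 ± 0.13).
Col5a1, of the collagen V that starts fibrils, had 5.85, 8.10 and 7.53 FPKM in TNBS thymopentin libraries, against 4.08, 3.56 and 4.73 in TNBS saline. It had 5.64, 4.35 and 5.18 FPKM in DSS thymopentin libraries, against 6.46, 6.49 and 7.46 in DSS saline. Groups were apart in both models and neither change was called (adjusted p = 0.0553 and 0.0785), while the responses differed by -1.04 ± 0.19 (adjusted p = 0.0171, and 0.0519 without DSS saline 3). Col5a2, the other chain, had 5.15, 5.69 and 6.995 FPKM in TNBS thymopentin libraries, against 4.92, 4.13 and 4.93 in TNBS saline. It had 5.15, 4.60 and 5.10 FPKM in DSS thymopentin libraries, against 6.87, 6.11 and 6.85 in DSS saline. Its groups were apart in both models and its DSS log2 fold change was -0.35 ± 0.11 (adjusted p = 0.0486, lost in 9 of 12 omissions, up to 0.145).

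Of the elastic fibre genes, elastin and lysyl oxidase were called lower in DSS colitis and 0 of 7 were called in TNBS colitis. Elastin (Eln), the rubber-like core, had 3.57, 4.60 and 4.24 FPKM in TNBS thymopentin libraries, against 2.55, 5.44 and 4.52 in TNBS saline. It had 3.11, 2.91 and 3.77 FPKM in DSS thymopentin libraries, against 5.84, 6.52 and 5.51 in DSS saline. TNBS groups overlapped and DSS groups were apart, with a DSS log2 fold change of -0.71 ± 0.19 (adjusted p = 0.0317, up to 0.1 on leaving out any DSS library). The authors' deposited table for DSS gives -1.004 for Eln (FDR 1.13e-11).
Lysyl oxidase (Lox), which cross-links collagen and elastin, had 1.76, 1.27 and 1.53 FPKM in TNBS thymopentin libraries, against 1.15, 1.46 and 0.860 in TNBS saline. It had 1.86, 1.05 and 1.30 FPKM in DSS thymopentin libraries, against 1.77, 3.95 and 3.20 in DSS saline. Groups overlapped in both models, in DSS through saline 1. The DSS log2 fold change was -0.70 ± 0.21 (adjusted p = 0.0456), lost in 8 of 12 omissions (up to 0.142), and the authors' deposited table for DSS gives -1.18 for Lox (FDR 0.000775). Its relative Loxl1, needed for elastic fibre upkeep, had 3.12, 2.79 and 2.90 FPKM in TNBS thymopentin libraries, against 1.73, 1.80 and 1.57 in TNBS saline. It had 4.77, 3.69 and 4.31 FPKM in DSS thymopentin libraries, against 6.17, 4.38 and 5.53 in DSS saline. TNBS groups were apart, DSS groups overlapped, and the responses differed by -0.81 ± 0.16 (adjusted p = 0.0249, up to 0.0661 over the 5 omissions that ended the call).
Fibrillin 1 (Fbn1), the microfibril scaffold, had 2.24, 2.15 and 3.51 FPKM in TNBS thymopentin libraries, against 1.18, 0.998 and 1.42 in TNBS saline. It had 2.18, 1.73 and 1.97 FPKM in DSS thymopentin libraries, against 1.97, 2.24 and 2.45 in DSS saline. It was apart in TNBS with no call (log2 fold change 0.71 ± 0.14, adjusted p = 0.0575), overlapped in DSS, and differed in response by -0.83 ± 0.20 (adjusted p = 0.0447, lost in 10 of 12 omissions). The authors' deposited table for TNBS gives 1.05 for Fbn1 (FDR 0.000279).
Fibulin 2 (Fbln2) bridges microfibrils and other matrix proteins. It had 1.57, 1.52 and 1.98 FPKM in TNBS thymopentin libraries, against 0.688, 0.480 and 0.983 in TNBS saline. It had 2.06, 1.67 and 1.82 FPKM in DSS thymopentin libraries, against 2.13, 2.69 and 2.69 in DSS saline. Groups were apart in both models, the TNBS log2 fold change of 0.65 ± 0.13 missed the threshold (adjusted p = 0.0542), and the responses differed by -0.95 ± 0.18 (adjusted p = 0.0206). The authors' deposited table for TNBS gives 1.21 for Fbln2 (FDR 0.00294).
Fibulin 1 (Fbln1), an elastic fibre and basement membrane protein, had 6.01, 5.92 and 8.51 FPKM in TNBS thymopentin libraries, against 5.18, 4.92 and 4.47 in TNBS saline. It had 13.7, 10.2 and 11.2 FPKM in DSS thymopentin libraries, against 14.3, 13.2 and 18.5 in DSS saline. TNBS groups were apart and DSS groups overlapped, with no call in either model, and every DSS library stood above every TNBS library. Fibulin 5 (Fbln5), needed for elastic fibre assembly, ranged from 0.960 to 1.63 FPKM in TNBS thymopentin libraries, against 0.712 to 0.849 FPKM in TNBS saline libraries. It ranged from 1.29 to 2.18 FPKM in DSS thymopentin libraries, against 0.470 to 2.43 FPKM in DSS saline libraries. It was called in no comparison.

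Between the models without thymopentin, matrix genes were higher in DSS colitis. Of the 35 genes 27 rose in DSS saline over TNBS saline and 0 fell, where 15.2% of all genes were called higher and 31.5% lower. Decorin led (log2 fold change 2.11 ± 0.10), followed by periostin (1.53 ± 0.15), fibulin 1 (1.47 ± 0.16), osteoglycin (1.41 ± 0.26) and thrombospondin 2 (1.37 ± 0.14). Not called were Col1a1, Col8a1, Col12a1, Col15a1, Fbln5, Eln, Thbs1 and Tnc. The median was 0.74, against -0.14 over all genes, and 33 of 35 values were positive. Under median-ratio scaling higher calls made up 44.8% of all calls, against 32.5% here.
All 4 tested proteoglycans were called, with adjusted p between 1.75e-06 for Dcn and 0.00163 for Ogn, as were 4 of 5 fibrillar collagens, 6 of 7 basement membrane genes, 4 of 6 other collagens, 5 of 7 elastic fibre genes and 4 of 6 glycoproteins. Over the 12 omissions the count lay between 26 and 28, 26 of the 27 kept their calls in all, and Col6a3 lost its call in 8 (up to adjusted p = 0.145), and it was 27 without TNBS saline 3. Markers moved as well: 8 of 9 fibroblast markers, 8 of 12 smooth muscle markers, 8 of 8 endothelial markers, 7 of 7 neuron and glia markers and 7 of 7 macrophage markers were called higher in DSS saline, and 5 of 10 epithelial markers were called lower and 1 higher. Their part in this result was not tested. This comparison uses the same saline libraries as the within-model comparisons.

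Between the thymopentin groups, in a comparison added after the group means had been seen, matrix genes were called about as often as genes in general. Of 35 genes 4 were called higher in DSS thymopentin than in TNBS thymopentin, Dcn, Fbln1, Col14a1 and Loxl1, and 5 lower, Col12a1, Fn1, Col8a1, Tnc and Col5a1, where 11.0% of all genes were called higher and 16.5% lower. The median was -0.16, against -0.05 over all genes. Decorin had a log2 fold change of 0.77 ± 0.10 (adjusted p = 0.000966) and fibulin 1 of 0.71 ± 0.16 (adjusted p = 0.0101). Col12a1 had -1.30 ± 0.25 (adjusted p = 0.00533), fibronectin -0.77 ± 0.15 (adjusted p = 0.00538) and Col8a1 -1.70 ± 0.47 (adjusted p = 0.0222). Col12a1 and Col8a1 had DSS thymopentin means under 1 FPKM and passed the filter through their higher groups. The Col8a1 value was -1.05 without TNBS thymopentin 3, its highest library, and its call was lost without DSS thymopentin 2 or 3 (up to adjusted p = 0.0686). Col14a1, Loxl1, Tnc and Col5a1 each lost their call in 2 to 5 omissions. Lumican and SPARC, both called between the saline groups, had -0.05 ± 0.13 and -0.01 ± 0.11 here, and a value near 0 does not show that they were equal beyond those errors. The count was 4 without DSS thymopentin 3 and 5 without DSS thymopentin 2, and Dcn, Fbln1, Col12a1 and Fn1 kept their calls through all 12 omissions. Without TNBS saline 3 it was 10. Of the markers, 5 of 9 fibroblast, 6 of 7 macrophage and 2 of 8 endothelial markers were called higher in DSS thymopentin. Of 10 epithelial markers 3 were called higher and 2, Cdh17 and Cdh1, lower, and 0 of 12 smooth muscle and 0 of 7 neuron and glia markers were called. Their part was not tested.

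Within each model, other matrix genes gave counts in the same directions. Of 6 other collagens tested, out of 27 in the table, Col16a1 rose in TNBS colitis (log2 fold change 0.63 ± 0.11, adjusted p = 0.0363), where its means were 7.22 FPKM with thymopentin and 4.30 FPKM with saline, and Col23a1, Col9a2 and Col16a1 fell in DSS colitis. Of 32 further matrix genes tested, 3 rose in TNBS colitis: Abi3bp (log2 fold change 1.24 ± 0.17, adjusted p = 0.00994), the microfibril protein Mfap4 (log2 fold change 0.98 ± 0.15, adjusted p = 0.0183) and dermatopontin Dpt (log2 fold change 0.88 ± 0.17, adjusted p = 0.0481). In DSS colitis 7 of the 32 fell, the TGF-beta binding protein Ltbp1, the laminin chains Lama5 and Lamc1, and Matn2, Efemp2, Vwa1 and Emilin1, and 0 rose. Median values were 0.44 in TNBS and -0.31 in DSS, against 0.03 and 0.12 over all genes. Of all genes 0.283% were called higher in TNBS, and 4.30% lower and 12.7% higher in DSS. Between the saline groups 23 of the 32 were called higher in DSS and 2 lower, Lama3 among them (log2 fold change -1.91 ± 0.19). Shares of all genes there were 15.2% and 31.5%. Between the thymopentin groups 6 were called higher in DSS and 5 lower, where 11.0% and 16.5% of all genes were.
Of 16 genes that process and fold collagen, 0 were called in TNBS colitis, with a median of 0.22. In DSS colitis the prolyl isomerase Fkbp10 and the prolyl 3-hydroxylase family member P3h3 had log2 fold changes of -0.40 and -0.37, both called lower, and the median was -0.24. Of 18 genes of the TGF-beta axis, a growth factor system that drives matrix synthesis, 0 were called in TNBS colitis (median 0.18). In DSS colitis the co-receptor Tgfbr3 (log2 fold change -0.86 ± 0.15, adjusted p = 0.00549), the induced matrix protein Tgfbi (log2 fold change -0.77 ± 0.14, adjusted p = 0.00636) and Ltbp1 (log2 fold change -0.56 ± 0.12, adjusted p = 0.0129) fell and the inhibitor Smad7 rose (log2 fold change 0.92 ± 0.20, adjusted p = 0.0146). The median of the axis was -0.18 in DSS, against 0.12 over all genes. Of its 18 genes 3 were called lower and 1 higher there, where 4.30% and 12.7% of all genes were. The part of this axis in the changes of the matrix genes was not tested.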

How the data were processed

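RNA from 12 colon libraries was extracted with TRIzol and made into strand-specific TruSeq libraries, per the labels' protocols. Per the submitters' processing notes the build was mm9 and the tools were STAR 2.5, Cuffnorm, DESeq 1.22.1 and FastQC, whose roles they do not state. The sources used here do not give the gene models. The authors deposited FPKM for 55335 genes in all libraries, 21126 of them at 0 throughout. They also deposited tables of selected genes per model (1173 for TNBS, 2326 for DSS) with log2 levels, log2 fold changes, p-values and FDR values, per the file headers; 5 and 7 matrix genes stood in them. Raised back from log2, low values (up to 30 reads) in those columns were whole multiples of a step per library, all within 0.01 reads, which gave the recovered reads.

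FPKM are not counts, so log2(FPKM + 1) was fitted with limma 3.58.1 in R 4.3.3 (4 group means, 8 residual degrees of freedom, empirical Bayes trend) on genes averaging 1 FPKM or more, two-sided, with Benjamini-Hochberg adjustment per comparison over all 13794 genes. With 3 libraries against 3, an exact permutation test cannot give a p below 0.1, so none was used. The fit was tested on simulated data. Python 3.11.15, pandas 2.3.3, numpy 2.4.6 and matplotlib 3.10.9 made tables and plots. Promoter windows are RefSeq's, GRCm38.p6.

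Groups and replicate numbers came from the treatment labels and titles. In TNBS, deviations from the group means of same-numbered thymopentin and saline libraries correlated at 0.124, 0.268 and 0.476, all above 0.1. The numbers may therefore pair these libraries. The value of 0.476 is that of TNBS thymopentin 3 and TNBS saline 3, the library that stood apart. The labels do not explain the numbers, and TNBS thymopentin 1 correlated at 0.287 with TNBS saline 2, above the matched 0.124 and 0.268. The main fit has no pair term, and the block is an alternative, under which 1 member was called in TNBS colitis. Depth per library is unknown from FPKM; the recovered steps gave size factors from 0.847 to 1.12. The members, the marker and matrix lists, their roles and the tests were chosen with earlier results of these data known. All members were to be named, those called in a comparison with their value in each library, and at most 3 or the called genes of each other list. The comparison of the thymopentin groups was added after the group means had been seen. Alternatives were the pseudocount (0.1), the filter (none, or a mean of at least 5), median-ratio and quantile scaling, a fit of the compared libraries alone, the replicate block and leaving out each library.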

Additional observations from a re-analysis of the deposited data

Results flagged for a closer look

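The response to thymopentin differed between DSS and TNBS colitis for 16 matrix genes, by the limma test of the difference itself (adjusted p under 0.05, DSS response minus TNBS response on the log2 scale). Among proteoglycans the difference was -1.34 for Dcn and -1.30 for Lum. Among glycoproteins it was -1.72 for Fn1, -1.29 for Thbs2, -1.22 for Postn (-1.2150 before rounding) and -0.84 for Sparc. Basement membrane chains gave -1.04 for Col4a1, -1.22 for Col4a2 and -0.93 for Col4a5. Of the other collagens Col6a1 gave -1.39 and Col6a2 -1.07, and of the fibrillar collagens Col5a1 gave -1.04 and Col5a2 -0.64. The elastic fibre genes Fbln2, Fbn1 and Loxl1 gave -0.95, -0.83 and -0.81. In all 16 the log2 fold change was positive in TNBS colitis and negative in DSS colitis.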

How the results depend on the processing

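No matrix gene that was called reversed its direction under any setting run. In TNBS colitis the count of 5 became 9 with a pseudocount of 0.1, 1 without the filter, 3 with a mean of at least 5 FPKM, 2 with median-ratio and 3 with quantile scaling, 0 with only the TNBS libraries and 1 with the replicate block, and 1 to 6 over the omissions of 1 library. In DSS colitis the count of 12 stayed at 12 with a pseudocount of 0.1. It became 7 without the filter, 8 with a mean of at least 5 FPKM, 15 with median-ratio and 14 with quantile scaling. With only the DSS libraries it was 9, and over the omissions 3 to 13. For the difference the count of 16 became 5 to 19 over the omissions, and the median of -0.93 became -1.20 with a pseudocount of 0.1; a fit of only the compared libraries could not be made, since all were used. The saline comparison's count of 27 became 17 with a mean of at least 5 FPKM, where fewer members are tested, and 26 to 28 over the omissions. The thymopentin comparison's count of 9 became 5 without the filter, 5 with a mean of at least 5 FPKM, 5 with only the compared libraries and 4 to 11 over the omissions. The causes of the other shifts were not tested. Over the omissions the member medians were 0.50 to 0.65 in TNBS, -0.44 to -0.28 in DSS, -1.02 to -0.82 for the difference, 0.66 to 0.84 between saline and -0.28 to -0.07 between thymopentin groups. With the replicate block the counts were 12, 17, 28 and 11 in DSS, the difference, the saline and the thymopentin comparisons. Deviations of same-numbered DSS libraries correlated at -0.136, 0.0427 and -0.14, which neither shows nor excludes pairs. Precision rests on 3 libraries a group and an unknown depth.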
